A study of Drosophila melanogaster with 6 samples.

Results

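The JNK pathway was followed through 10 member genes in sorted cells of the wing imaginal disc of *Drosophila melanogaster*, the larval epithelium that forms the adult wing and dorsal thorax. The genes were the adaptors *Traf4* and *Traf6*, the kinases *msn*, *slpr*, *hep* and *bsk*, the transcription factors *Jra* and *kay*, the phosphatase *puc* and the ligand *egr*. They were found by gene symbol in the platform annotation, which gave 13 of the array's 14010 probe sets, and they are 10 of 10843 named genes. *Traf4*, *hep* and *kay* each had a pair of probe sets and the other genes had 1.

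There were 3 arrays of GFP-positive cells and 3 arrays of GFP-negative cells. All 6 samples came from discs of the same reporter genotype, E(spl)m4-GFP, taken late in the third larval instar, so the GFP-negative cells carried the transgene too. Per the labels, each sample pooled about 200 discs, which were dissociated in trypsin-EDTA for 2 hours and then for 1 hour with repeated pipetting, and *w1118* discs set the fluorescence limit. The GFP-positive samples held all cells above that limit and the GFP-negative samples 100000 cells below it, and the labels do not state separate dissections, so the spread behind each p-value may be technical.

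JNK (Jun N-terminal kinase) signalling is a cascade in which each kinase activates the next. The tumour necrosis factor Eiger (*egr*) binds the receptors Grindelwald and Wengen, and TRAF adaptors link receptors to the kinase Misshapen (*msn*). From there the signal can pass through Slipper (*slpr*) and Hemipterous (*hep*) to the JNK Basket (*bsk*). Basket phosphorylates Jun (*Jra*), which pairs with Fos (*kay*) to activate genes such as *puc*, whose phosphatase switches Basket off again. In the wing disc the pathway is known for thorax closure, for cell death and for repair after wounding.

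Per the file headers, the Signal of a probe set is a linear brightness in arbitrary units, scaled on each array to a target of 500, and a detection call marks it Present, Marginal or Absent. The arrays called between 4321 and 4541 probe sets Present in GFP-positive cells and between 4382 and 5039 in GFP-negative cells. Replicate 1 of both groups was hybridized on day 1 and the other 4 arrays on day 2. By array lot, GFP-positive array 1 shared a lot with GFP-negative arrays 1 and 2, array 3 of both groups shared another, and GFP-positive array 2 had its own. The ratio of 3′ to 5′ signal of the actin control, which grows when labelled RNA is short, was 20.4 to 45.7 on GFP-positive and 22.3 to 73.1 on GFP-negative arrays. For the GAPDH control it was 17.2 to 42.7 on GFP-positive and 19.3 to 33.6 on GFP-negative arrays, so the 2 controls did not rank the groups alike. Both ratios were far above 1 on all 6 arrays, so labelled RNA was short throughout. An Absent call therefore need not mean that a transcript was lacking. All 5 genes listed to check the sort had higher signals on each GFP-positive than on each GFP-negative array, against 9.43% of all tested probe sets. *E(spl)m4-BFM*, *phyl* and *meru* passed the test described below, but 4 of the 5 genes entered it through the GFP-positive arrays alone, so neither count lends weight. With replicate number as a block *neur* (limma adjusted p = 0.016, against 0.0554 without it) and *sc* (0.0383, against 0.0926) passed as well. Of 6 listed disc epithelium genes on the array, *vg* and *ap* were Present on all 6 arrays, while no probe set of *nub*, *Dll*, *salm* or *tsh* was Present on any.

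*Traf4* was higher in GFP-positive than in GFP-negative cells, by 2.80-fold in mean signal. *egr* was lower, by 4.57-fold when its GFP-positive signals, none called Present, were set to the lowest Present signal of each array. The other 5 tested genes, *Traf6*, *bsk*, *Jra*, *kay* and *puc*, did not pass the test, and *msn*, *slpr* and *hep* were called Present too rarely to be tested. A probe set was tested where 2 or more arrays in either group called it Present, and the test was limma on log2(signal + 16) over all 4943 such probe sets, with a Benjamini-Hochberg adjusted p under 0.05 as the threshold. Over all tested probe sets 2.99% passed, 1.25% higher and 1.74% lower in GFP-positive cells, and 5.2% passed with replicate number as a block (257 probe sets in place of 148). Of the 7 tested member genes 1 was higher and 1 lower, and 4 had an unadjusted p under 0.05, against 14% of all tested probe sets. *egr*, *kay* and *puc* passed the detection filter through the GFP-negative arrays alone and so were bound to lean towards lower values in GFP-positive cells, and this count lends no weight to a direction. The 4 genes *Traf4*, *Traf6*, *bsk* and *Jra* were Present on all 6 arrays.

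**Figure D1:**
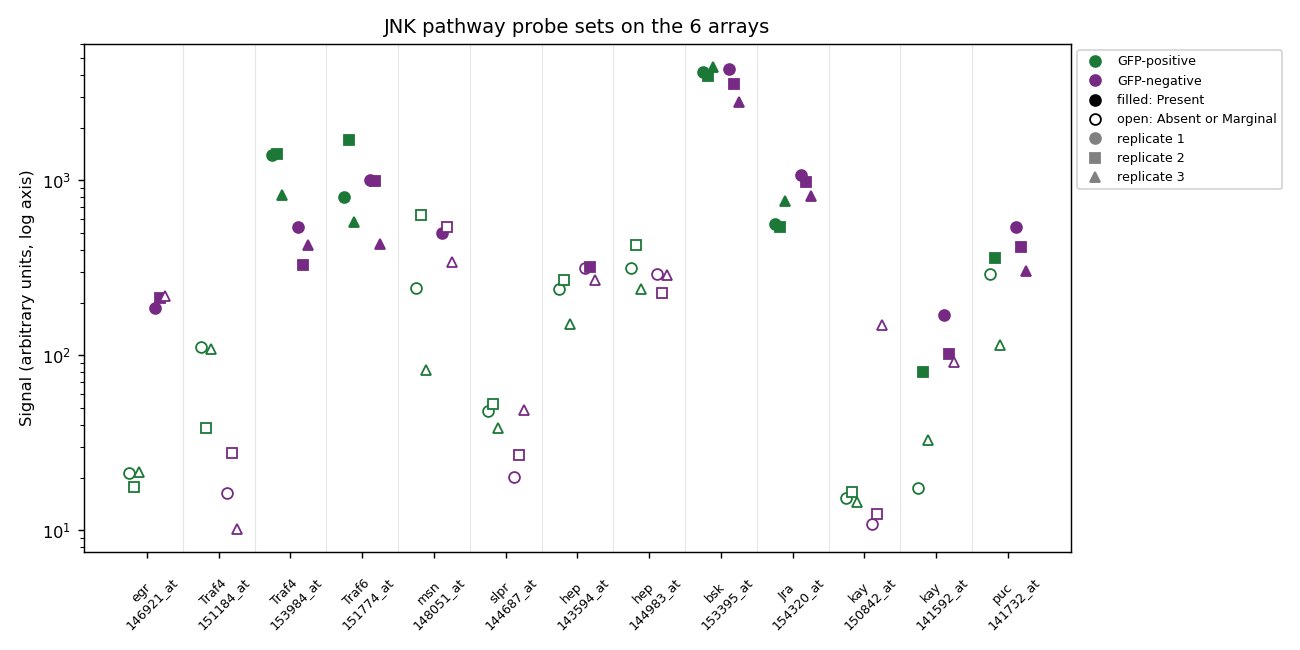
Signal of the 13 probe sets (arbitrary units, log axis) on the 3 GFP-positive arrays (green, left) and the 3 GFP-negative arrays (purple, right), with a symbol for each replicate and filled symbols for Present calls. The GFP-positive signals of Traf4 probe set 153984_at lie between 824.2 and 1408.7, all above the GFP-negative ones, and those of egr lie between 17.7 and 21.6, all below.

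The ligand gene *egr* (probe set 146921_at) had signals of 21.3, 17.7 and 21.6 on GFP-positive arrays 1, 2 and 3, against 187.1, 213.2 and 217.6 on the GFP-negative arrays. The groups stood far apart and the arrays within each group lay close together. No GFP-positive array called *egr* Present, with detection p-values between 0.703 and 0.765, and GFP-negative arrays 1 and 2 did while array 3 called it Absent with a p of 0.0886. Its level was therefore measured in the GFP-negative cells but not in the GFP-positive cells, where it was lower (limma adjusted p = 0.00165). With a floor in place of the GFP-positive signals the difference was 4.57-fold. That fold sets the GFP-negative mean on the log2(signal + 16) scale against the lowest signal that each GFP-positive array called Present, between 29.4 and 36.8 units. Absent calls also occurred at higher signals, as for *egr* itself at 217.6 on GFP-negative array 3, so the fold is no strict lower limit. The fitted log2 difference of -2.62 (SE 0.321) rests on GFP-positive signals that were not above background, so it is no measure of size. It was -2.44 in the arrays hybridized on day 1, -2.70 in those of day 2, and -2.53 and -2.64 in the lots that held both groups. In bulk samples such as these, fewer cells that make a transcript and less transcript per cell cannot be told apart.

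Markers of adult muscle precursors, the mesodermal cells that lie beneath the notum epithelium, moved with *egr*. Of the 6 listed markers 5 were on the array, and *Him* and *htl* were tested, both only by way of their Present calls in GFP-negative cells. Both were lower in GFP-positive cells. *Him*, whose product holds back muscle differentiation, had 43.2, 21.7 and 23.7 on GFP-positive arrays, against 518.9, 798.4 and 655.7 on GFP-negative arrays (limma adjusted p = 0.000134). *htl*, which encodes an FGF receptor of the mesoderm, had 28.7, 27.2 and 35.6 on GFP-positive arrays, against 353.2, 403.1 and 474.3 on GFP-negative arrays (limma adjusted p = 0.000271). The defining marker *twi* was Present on no array and had signals of 55.4, 66.7 and 31.9 on GFP-positive arrays, against 546.8, 603.9 and 522.6 on GFP-negative arrays. *zfh1* was also Present on no array, with 42.4 to 112.1 on GFP-positive and 256.4 to 348.2 on GFP-negative arrays, and *ct* had overlapping groups. The summed signal of the 5 markers was 223.9 to 624.5 on GFP-positive and 1888 to 2306.5 on GFP-negative arrays. The part of these cells in the difference of *egr* was not tested. Of 5 hemocyte markers, *Hml*, *Pxn*, *NimC1* and *Sr-CI* were Present on no array and *srp* on 3, and the sum of the 5 overlapped, at 85.1 to 120.8 on GFP-positive and 91.4 to 348 on GFP-negative arrays.

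Of the receptors of Eiger, one was tested and did not pass the threshold. They were looked at for their role after their values were seen. *grnd* (Grindelwald) had 234.5, 324.3 and 257.5 on GFP-positive arrays, against 420.6, 324.5 and 226.6 on GFP-negative arrays. The groups overlapped, with a log2 difference of -0.21 (SE 0.279, limma adjusted p = 0.796). *wgn* (Wengen) was Present on no array and was not tested. Its signals were 6.9, 9 and 7.2 on GFP-positive arrays, against 18.2, 16.7 and 9.4 on GFP-negative arrays, lower on each GFP-positive array but below detection in both groups.

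The adaptor gene *Traf4* was higher in GFP-positive cells. Its protein binds Misshapen and, in the gastrulating fly embryo, acts at adherens junctions. Probe set 153984_at had signals of 1401.6, 1408.7 and 824.2 on GFP-positive arrays 1, 2 and 3, against 541.9, 329.5 and 425.3 on the GFP-negative arrays. GFP-positive array 3 was the lowest of its group and still above every GFP-negative array. GFP-positive cells had a mean signal of 1212 ± 335 and GFP-negative cells of 432 ± 106 (SD, n = 3 each), a ratio of 2.80. All 6 arrays called it Present, with detection p-values of at most 0.011. The log2 difference was 1.44 (SE 0.281, 95% interval 0.81 to 2.06, limma adjusted p = 0.0223), the 55th highest of the 4943 tested. The difference was 1.35 within day 1, 1.49 within day 2, and 1.69 and 0.93 within the lots that held both groups.

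The call of *Traf4* depended on the arrays and the batch term while its direction did not. The adjusted p was 0.103 without GFP-positive replicate 1, 0.0819 without GFP-positive replicate 2, 0.114 without GFP-negative replicate 2 and 0.0603 without GFP-negative replicate 3, 0.0605 in the day 2 arrays, 0.0699 with no detection filter and 0.0567 with lot as a block, which makes no use of GFP-positive array 2, alone in its lot. For *egr* it stayed between 0.00014 and 0.0213 over the 16 alternatives in which it was tested; it was not tested where all 6 arrays had to call a probe set Present.

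Among markers of other cell types, *loco*, *gcm* and *verm* leaned the same way as *Traf4*, while the defining markers *repo* and *btl* had overlapping groups. Of the 4 glial markers, *loco*, a regulator of G protein signalling, had 1278.2, 1026.7 and 861.6 on GFP-positive arrays, against 355.1, 375.8 and 587.5 on GFP-negative arrays. It was higher in GFP-positive cells, with a log2 difference of 1.25 (SE 0.261, limma adjusted p = 0.0297), tested through the GFP-positive arrays alone. No GFP-negative array called *loco* Present, so no fold is given. *gcm*, the transcription factor that sets glial fate, had 116.1, 251.2 and 100 on GFP-positive arrays, against 5.9, 31.6 and 86.4 on GFP-negative arrays, and was Present on GFP-positive array 2 alone. The defining glial marker *repo* had 141.5, 160 and 72.9 on GFP-positive arrays, against 135.3, 132.9 and 115.3 on GFP-negative arrays, groups that overlapped (limma adjusted p = 0.937), and *moody* was Present on no array. The summed signal of the 4, most of it from *loco*, was 1089.6 to 1579.8 on GFP-positive and 566.1 to 802.8 on GFP-negative arrays.

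Of 3 tracheal markers on the array, *verm*, a chitin deacetylase, had 4493.9, 5515.5 and 5284 on GFP-positive arrays, against 2748.1, 3447.3 and 3851.5 on GFP-negative arrays. The groups did not overlap, and the log2 difference of 0.61 did not pass (SE 0.216, limma adjusted p = 0.218). *btl*, the defining FGF receptor of tracheal cells, was Present on no array, and *serp*, whose brighter probe set was Absent on all 6, was Present on 1 array by its other probe set. The sum of the 3, most of it from *verm*, was 4577.5 to 5861.7 on GFP-positive and 3098.8 to 3970.5 on GFP-negative arrays. The fat body markers *Lsp2* and *Fbp1* were Present on no array and their sums overlapped. The part of such cells in the difference of *Traf4* was not tested.

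**Figure D2:**
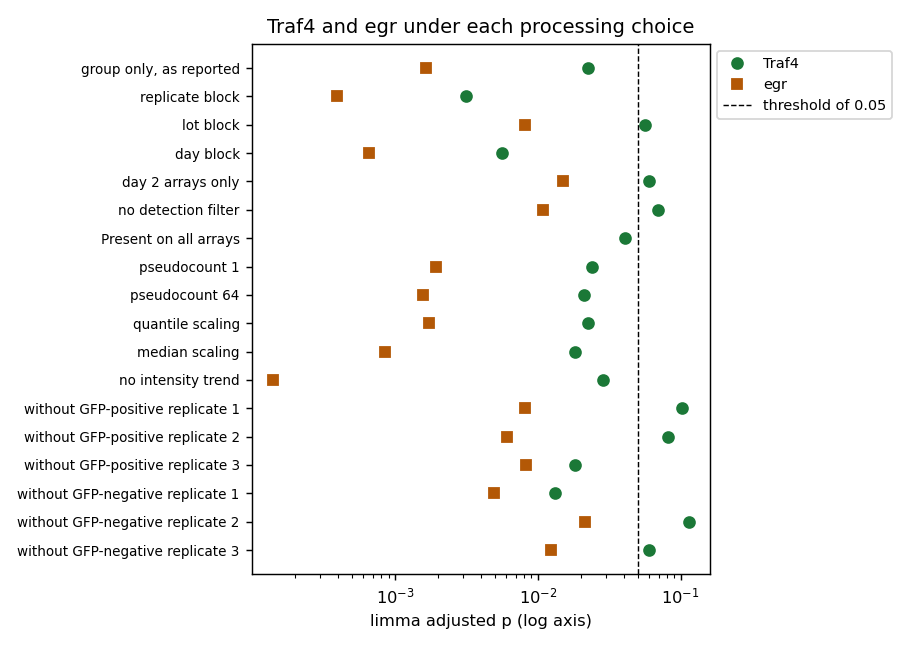
Adjusted p from limma (log axis) of Traf4 (circles) and egr (squares) for the reported fit and each alternative, with the threshold of 0.05 dashed. Traf4 lies right of the threshold in 7 of 17 alternatives and egr left of it in all 16 in which it was tested.

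The other *Traf4* probe set, 151184_at, was Absent on all 6 arrays. It had signals of 111.5, 38.4 and 108.7 on GFP-positive arrays, against 16.4, 27.5 and 10.2 on GFP-negative arrays. The GFP-positive signals again lay above the GFP-negative ones, but since neither group was detected no fold is given. With no detection filter its adjusted p was 0.215 (limma, unadjusted p = 0.0059).

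The second adaptor gene, *Traf6*, varied more among the arrays of a group than between the groups. Its protein binds the Toll pathway kinase Pelle and takes part in JNK signalling. It had signals of 796.9, 1709.2 and 575.3 on GFP-positive arrays, against 1006.1, 988.5 and 430 on GFP-negative arrays. The groups overlapped, though GFP-positive array 2 lay above every GFP-negative array and GFP-negative array 3 below every GFP-positive one. All 6 arrays called it Present. The log2 difference was 0.29 (SE 0.426, 95% interval -0.66 to 1.23, limma adjusted p = 0.818), and it was -0.33 within day 1 and 0.59 within day 2, -0.32 and 0.41 within the lots that held both groups. The residual SD of *Traf6* was 0.74 log2 units, against a median of 0.31 over all tested probe sets, and 3.42% of them exceeded it. It fell to 0.40 with replicate number and 0.27 with lot as a block, but was 0.85 with day. Much of this spread was thus shared by arrays of the same number or lot.

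Of the kinases, *bsk*, the JNK itself, was Present on all 6 arrays. It had signals of 4166.1, 3967.9 and 4434 on GFP-positive arrays, against 4306.7, 3528.9 and 2792.9 on GFP-negative arrays. The groups overlapped through GFP-negative array 1. The log2 difference was 0.26 (SE 0.222, 95% interval -0.23 to 0.75, limma adjusted p = 0.661), and the difference was -0.05 within day 1 and 0.42 within day 2, 0.10 and 0.66 within the lots that held both groups.

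The 3 kinases above Basket were each called Present on at most 1 array. *msn*, the Ste20-type kinase that TRAF adaptors bind, had signals of 243, 634.6 and 81.9 on GFP-positive arrays, against 502.3, 539.3 and 340.8 on GFP-negative arrays. GFP-negative array 1 alone called it Present, and GFP-positive array 2, which had the highest signal, called it Marginal with a detection p of 0.0421. The GFP-positive signals spanned a 7.75-fold range that enclosed all GFP-negative ones.

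*hep*, the kinase of Basket, was called Present on 1 array by 1 of its probe sets. Probe set 143594_at had 238.3, 269 and 151.8 on GFP-positive arrays, against 313.7, 318.3 and 268.8 on GFP-negative arrays, and GFP-negative array 2 called it Present. Probe set 144983_at had 314.1, 427.8 and 239.4 on GFP-positive arrays, against 290.9, 227.3 and 288.9 on GFP-negative arrays, and was Absent on all 6. The pair had log2 differences of opposite sign, -0.46 and 0.24, with adjusted p-values of 0.678 and 0.838 in the limma fit with no detection filter.

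*slpr*, the mixed-lineage kinase that activates Hemipterous, was Absent on all 6 arrays. Its signals lay between 38.4 and 52.4 on GFP-positive arrays and between 20.2 and 48.4 on GFP-negative arrays. Detection p-values were 0.745 or higher, so its level was not measured by this probe set in either group.

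**Figure D3:**
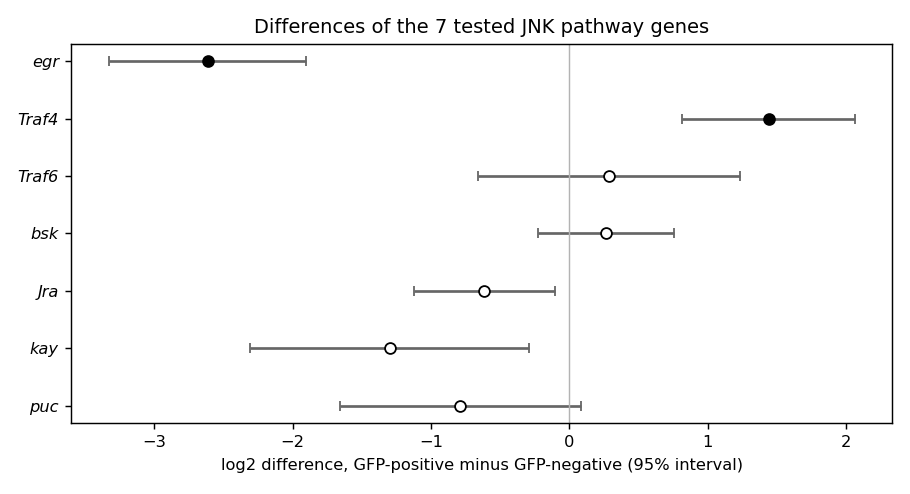
Log2 difference, GFP-positive minus GFP-negative, of the 7 tested genes with its 95% interval from limma, filled where the adjusted p passed 0.05. egr, whose GFP-positive signals were not above background, lies at -2.62 and Traf4 at 1.44, and the 5 open points run from -1.30 for kay to 0.29 for Traf6.

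Neither gene of the AP-1 transcription factor passed the threshold. *Jra*, fly Jun, had signals of 561.3, 537.4 and 762.7 on GFP-positive arrays, against 1067.7, 982.7 and 811.4 on GFP-negative arrays. The groups did not overlap, and the closest pair was array 3 of each group. All 6 arrays called it Present, with detection p-values of at most 0.000613. GFP-positive cells had a mean signal of 620 ± 124 and GFP-negative cells of 954 ± 131 (SD, n = 3 each), with a log2 difference of -0.62 (SE 0.23, 95% interval -1.13 to -0.11, limma unadjusted p = 0.0227, adjusted p = 0.251). It was -0.91 within day 1 and -0.47 within day 2, and -0.85 and -0.09 within the lots that held both groups.

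*kay*, fly Fos, was dim. Probe set 141592_at had signals of 17.4, 79.8 and 32.9 on GFP-positive arrays, against 168.7, 101.1 and 91.8 on GFP-negative arrays. The groups did not overlap, though GFP-positive array 2 came close to GFP-negative array 3. It was Present on GFP-positive array 2 and on GFP-negative arrays 1 and 2, and so was tested through the GFP-negative arrays alone. The log2 difference was -1.30 (SE 0.453, 95% interval -2.31 to -0.29, limma unadjusted p = 0.0165, adjusted p = 0.212), with -2.47 within day 1 and -0.72 within day 2, and -2.14 and -1.14 within the lots that held both groups. Probe set 150842_at was Absent on all 6 arrays, with signals of 14.4 to 16.6 on GFP-positive and of 10.8, 12.3 and 149.7 on GFP-negative arrays 1, 2 and 3. Its GFP-positive signals thus lay above those of GFP-negative arrays 1 and 2, unlike those of 141592_at.

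The feedback phosphatase gene *puc*, a target of AP-1 that is often used as a readout of JNK activity, also missed the threshold. It had signals of 290.8, 358 and 113.8 on GFP-positive arrays, against 538.8, 416.6 and 304.2 on GFP-negative arrays. GFP-positive array 2 overlapped GFP-negative array 3. All 3 GFP-negative arrays called it Present, while GFP-positive array 2 alone did so in its group. The log2 difference was -0.79 (SE 0.392, 95% interval -1.66 to 0.08, limma adjusted p = 0.413), with -0.85 within day 1 and -0.76 within day 2, and -0.68 and -1.30 within the lots that held both groups.

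Of the 7 tested genes the groups did not overlap in 4, with *Traf4* above and *egr*, *Jra* and *kay* below, against 20.8% of all tested probe sets (9.43% above and 11.4% below). The median log2 difference was -0.62 over the 7 and -0.01 over all tested probe sets. *egr*, *kay* and *puc* were tested through the GFP-negative arrays alone, so neither this median nor the split above and below lends weight to a direction. The 4 genes Present on all arrays had log2 differences of 1.44 (*Traf4*), 0.29 (*Traf6*), 0.26 (*bsk*) and -0.62 (*Jra*).

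In the RefSeq gene table of assembly Release 6 plus ISO1 MT, *egr* and *Jra* lie near each other on chromosome 2R, with 6 genes starting between them, of which 2 code for proteins. *Traf6* and *slpr* lie near each other on chromosome X, likewise with 6 genes starting between them, of which 5 code for proteins. The array files name no genome build, so no coordinates are given.

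Genes around the members were taken from 7 lists with 69 entries, of which 47 were on the array and 28 tested. Of the 28, 0 were higher in GFP-positive cells, 2 were lower and 26 did not pass (limma, adjusted p under 0.05), and 4 had an unadjusted p under 0.05. Over all tested probe sets 2.99% passed and 14% had an unadjusted p under 0.05. Of the 28, 5 were tested through the GFP-negative arrays alone and 1 through the GFP-positive arrays alone, so the split by direction lends no weight. The median log2 difference of the 28 was -0.06, against -0.01 over all tested probe sets.

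Of 7 tested upstream inputs and kinases outside the members, none passed and none had an unadjusted p under 0.05 (median -0.11). *Mekk1*, a MAP kinase kinase kinase, had the largest difference, with a log2 value of -0.32 (SE 0.261, limma adjusted p = 0.648). *Mkk4*, the other kinase of Basket, followed with 0.28 (SE 0.274, adjusted p = 0.712) and was Present on all 6 arrays. *wnd* and *Takl2* were Present on no array. *Tak1*, also listed among these inputs and kinases, had no probe set with a single symbol and was not analysed.

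Of 3 negative regulators on the array, *alph* and *CYLD* were tested and did not pass. *alph*, a protein phosphatase of the PP2C family, had signals of 661.4, 772.5 and 668.3 on GFP-positive arrays, against 514, 492 and 374.5 on GFP-negative arrays. The groups did not overlap, with a log2 difference of 0.60 (SE 0.221, limma adjusted p = 0.242). *CYLD*, a deubiquitinase that was tested through the GFP-positive arrays alone, differed by 0.23 on the log2 scale (SE 0.586, limma adjusted p = 0.905). *raw*, which restrains JNK signalling in embryonic closure, was Present on no array, with signals of 222.1, 54.2 and 186.1 on GFP-positive arrays, against 258.2, 218.1 and 217.1 on GFP-negative arrays.

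Of 10 genes on the array that were listed as responsive to JNK or as acting in closure, 7 were Present on no array, among them *scaf*, *Ilp8*, *Ets21C* and *Gadd45*. Of the 3 tested, 1 was lower and 2 did not pass. *Timp*, an inhibitor of matrix metalloproteinases, had signals of 32.8, 99.5 and 81.8 on GFP-positive arrays, against 350.4, 384.2 and 179.3 on GFP-negative arrays. The groups did not overlap, and it was lower in GFP-positive cells (limma adjusted p = 0.0335), tested only through the GFP-negative arrays. No GFP-positive array called it Present, and with the floor used for *egr* the difference was 3.63-fold, again no strict limit. The call was lost without GFP-positive replicate 1 (0.111) or 3 (0.0897), without GFP-negative replicate 1 (0.0759) or 2 (0.172), in the day 2 arrays (0.174) and with no detection filter (0.13). Its log2 difference was -1.53 to -2.22 when 1 array was left out and -1.40 in the day 2 arrays, and the adjusted p was 0.0056 with replicate number and 0.0159 with day as a block. The muscle precursor markers given above moved in the same direction, and their part in the difference of *Timp* was not tested.

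Of 11 tested genes of the Toll and Imd pathways, which TRAF proteins also serve, 0 were higher, 1 was lower and 10 did not pass. *Tl*, the Toll receptor, had signals of 351.7, 464.2 and 311.4 on GFP-positive arrays, against 1009.1, 775.5 and 695 on GFP-negative arrays. All 6 arrays called it Present and the groups did not overlap, with a log2 difference of -1.11 (SE 0.244, limma adjusted p = 0.0385). The call was lost without GFP-positive replicate 1 (0.138) or 3 (0.141), without GFP-negative replicate 1 (0.0832), 2 (0.14) or 3 (0.0601), in the day 2 arrays (0.198), over probe sets that all 6 arrays called Present (0.0643) and with no detection filter (0.101). Its log2 difference was -0.96 to -1.26 when 1 array was left out and -0.92 in the day 2 arrays, and the adjusted p was 0.0153 with replicate number and 0.0229 with day as a block. *pll* (Pelle), the kinase that Traf6 binds and a gene picked out after its values were seen, had 386.8, 287.8 and 403 on GFP-positive arrays, against 625.5, 624.6 and 525.1 on GFP-negative arrays. The groups did not overlap, but the log2 difference of -0.71 (SE 0.228) did not pass (adjusted p = 0.166).

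The remaining lists held few tested genes and none passed. *lic*, the kinase of p38, differed by 0.03 on the log2 scale (SE 0.22, limma adjusted p = 0.97), and *Dsor1*, the kinase of ERK, had 0.13 (SE 0.254, adjusted p = 0.862). Of the adherens junction genes, *baz*, a polarity protein, had 0.44 (SE 0.389, adjusted p = 0.679) and *alpha-Cat*, which ties cadherin to actin, 0.39 (SE 0.267, adjusted p = 0.583). At an unadjusted p under 0.05 there were 0 in each of these 3 lists.

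Heat shock and stress genes were followed as well, since JNK is also known as a stress-activated kinase. Of 11 listed, 5 were on the array, while *Hsp22*, *Hsp23*, *Hsp83* and the listed *Hsp70* genes had no probe set with a single symbol. All 5 were tested, 0 passed and 0 had an unadjusted p under 0.05, with a median log2 difference of 0.06. Over all tested probe sets 2.99% passed and 14% had an unadjusted p under 0.05, so counts of 0 among 5 genes lend no weight. *Hsp27* had 24310.7 to 28272.5 on GFP-positive and 19958.5 to 21616.8 on GFP-negative arrays, groups that did not overlap, with a log2 difference of 0.32 (SE 0.179, limma adjusted p = 0.451). *stv* (starvin), a BAG-domain co-chaperone, had 878.3 to 1700.5 on GFP-positive and 1091.6 to 1951.8 on GFP-negative arrays, with a log2 difference of -0.22 (SE 0.3, limma adjusted p = 0.802).

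The genes whose array profile was most like that of *Traf4* were found by the root mean square difference of log2(signal + 16) over the 6 arrays, each probe set centred on its own mean. Of 4336 named probe sets ranked, with a median of 0.856 log2 units, the nearest was *Poxn*, a paired-domain transcription factor of chemosensory organs, at 0.164. GFP-positive cells had a mean *Poxn* signal of 466 ± 98.9 and GFP-negative cells of 157 ± 51.1 (SD, n = 3 each). *M7BP* followed at 0.196, *ss*, a bHLH-PAS transcription factor, at 0.226, *rdo* at 0.249 and *CG11409* at 0.261. Of these, *ss* and *rdo* were Present on all 6 arrays, while *Poxn*, *M7BP* and *CG11409* were Present on no GFP-negative array. Among the members *bsk* was nearest to *Traf4*, at 0.688 and rank 679, and *egr* farthest, at 2.06 and rank 4328. The points are 6 arrays in 2 groups, and the order is a description with no test.

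**Figure D4:**
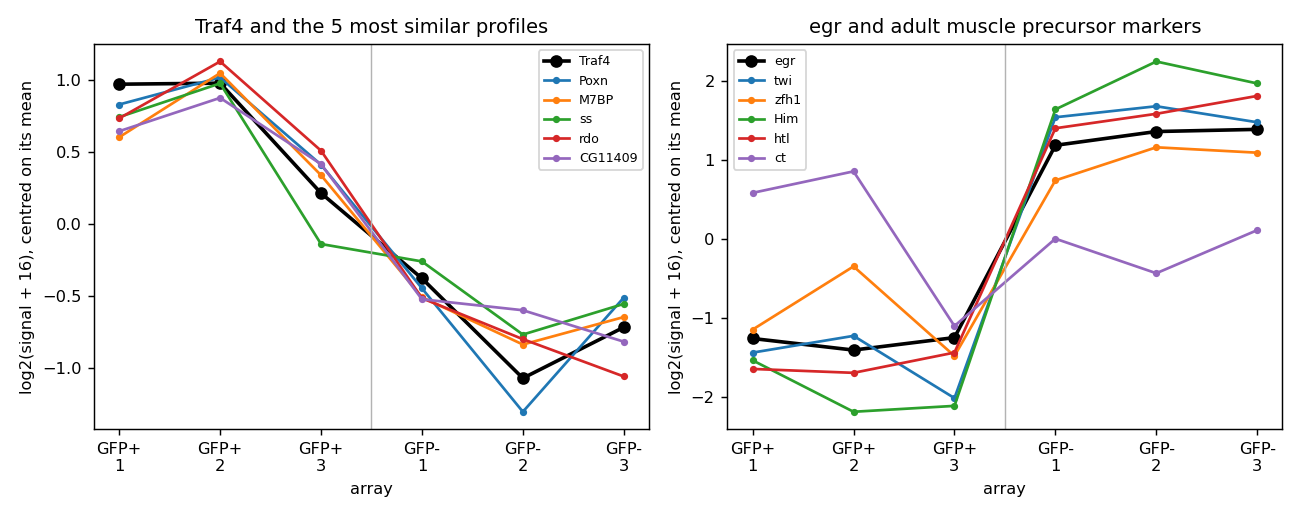
Left, log2(signal + 16) centred on its mean for Traf4 (black) and the 5 most similar genes on each array. Right, the same for egr (black) and the 5 adult muscle precursor markers on the array, of which twi, zfh1, Him and htl lie lower on every GFP-positive than on every GFP-negative array and ct does not; lines only join the points of a gene.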

How the data were processed

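Per the file headers, the deposited intensity (Signal) came from Affymetrix's statistical algorithm on a DrosGenome1 array, scaled over all probe sets to a target of 500. Detection p-values, also as deposited, gave Present calls below 0.04 and Marginal calls below 0.06 with Tau at 0.015, per the file headers. The deposited series table equalled Signal in all 84060 values. How RNA was labelled is not given in the sources used here. Gene symbols came from the platform annotation (1 symbol for 12443 probe sets), updated through Entrez numbers with a RefSeq table; probe sets with several symbols stayed unnamed.

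Values were transformed as log2(signal + 16) and tested two-sided with limma 3.58.1 (R 4.3.3), using lmFit with a term for group alone and eBayes with an intensity trend. On this scale the change of dim genes is understated. For a gene with several probe sets the lists used the brightest tested one. A gene was called Present on no array only where that held for all its probe sets. All members were named, as were, in the 7 wider lists of pathway and junction genes, those past the threshold or otherwise the 2 largest differences, and the 5 profiles nearest to *Traf4*. That rule did not cover the marker and stress genes, which were picked with their values known. The members and lists were chosen with earlier results of these data known. Hybridization day (2 days) and lot (3 lots) were read from headers and labels. Replicate number was a block in an alternative fit only, not in the reported one. It was taken to pair the samples, since same-numbered arrays deviated together from their group means (correlations 0.402, 0.102 and 0.122). The last 2 are only just over the limit of 0.1, and 1 of 6 unlike-numbered pairs, GFP-positive 3 with GFP-negative 2, had 0.221. Number 1 of both groups shared a day and a lot and number 3 a lot, so shared batch and shared dissection cannot be told apart. The fit was tested on simulated data with independent noise on each array. That test held no day, lot or replicate effects and so cannot speak for them. The 3 arrays per group limit the precision of every value.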

Additional observations from a re-analysis of the deposited data

How the results depend on the processing

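The 148 probe sets changed across the array became 257 with the replicate block, 76 in the day 2 arrays, 229 with the day block, 50 over probe sets that all 6 arrays called Present and 97 with no detection filter, and 69 to 153 when 1 array was left out. The *Traf4* difference of 1.44 was 1.49 in the day 2 arrays, 1.36 with lot as a block, 1.44 with no detection filter and 1.27 to 1.69 when 1 array was left out; the first 3 missed the threshold, as did 4 of the 6 left-out arrays. Its adjusted p was 0.00313 with the replicate block, which changed no call of a member. The count of members that were higher was then 0 in the day 2 arrays, with lot as a block and with no filter, and 0 to 1 when 1 array was left out. The count of members that were lower was 0 over probe sets that all 6 arrays called Present, where *egr* is not tested. The *Traf6* difference was -0.0073 with lot as a block and ran from -0.15 to 0.62 when 1 array was left out. The 2 genes of the wider lists that passed became 0 in the day 2 arrays, over probe sets that all 6 arrays called Present and with no filter, and 0 to 2 when 1 array was left out. Fewer genes are tested over all-Present probe sets and fewer samples in the day 2 arrays; otherwise the cause was not tested. The differences of *egr*, *Jra*, *kay*, *puc* and *bsk* kept their sign and side of the threshold under every alternative that tested them. Median scaling set the median of all tested probe sets at -0.12, against -0.01. The limit for *msn*, *slpr* and *hep* is that each was called Present on at most 1 array.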

Other observations

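Some list genes were Present on no array and yet had groups that did not overlap, by their brightest probe set. They were picked out after their values were seen and, with no detection in either group, have no fold and no test. *Gadd45*, a stress-inducible activator of the p38 and JNK cascades, had 845.3, 578.2 and 726.9 on GFP-positive arrays, against 451.8, 557 and 515.5 on GFP-negative arrays. *Mkp3*, a phosphatase of ERK, had 193.3, 264.6 and 204.4 on GFP-positive arrays, against 270.1, 403.8 and 366.5 on GFP-negative arrays. *Takl2* had 46.8, 11.1 and 29.1 on GFP-positive arrays, against 8.5, 4.9 and 4.3 on GFP-negative arrays. *nub* had 34.5, 51.9 and 57.7 on GFP-positive arrays, against 59.2, 81.5 and 73.3 on GFP-negative arrays. *wgn*, *twi* and *zfh1* are given above. Of all tested probe sets, 20.8% had groups that did not overlap, so these cases lend no weight.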
